A study of Capra hircus and Bos taurus with 7 samples.

Results

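The miR-15 and miR-16 seed family was followed in small RNA libraries from extracellular vesicles, the membrane-bound particles that cells release, of reconstituted milk powders. Members were taken by name: every row of the deposited miRNA tables called miR-15a, miR-15b, miR-16a, miR-16b, miR-195, miR-497 or miR-424, without species prefix and arm. Of these 7 names 6 were present, giving 6 of the 364 rows, all under bovine names (bta-miR-15a, bta-miR-15b, bta-miR-16a, bta-miR-16b, bta-miR-195 and bta-miR-424-5p). The name miR-497 was not analysed here. One group was a single library from a bovine powder (Bos taurus) that the labels call commercial; skimmed goat powder and whole goat powder (Capra hircus) gave 3 libraries each. Per the labels, all powders were reconstituted in warm water and the vesicles were isolated by size exclusion chromatography (SEC). The goat libraries carry the letters A to C, and nothing in the labels says whether these stand for separate packs, lots or repeat isolations, so each p-value reflects the scatter of these libraries alone, and that scatter may be technical. Breed, lot and heat treatment of the powders were not given in the sources used here.

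Members of this family share their seed, the stretch of bases 2 to 8 by which a miRNA recognises its targets, and are known as repressors of cell cycle and survival genes such as cyclins and BCL2. They are made from several loci, mostly as neighbouring pairs of a miR-15 type and a miR-16 type hairpin on a common primary transcript. In body fluids miR-16 is among the miRNAs most often used as a reference in quantitative PCR, and it is abundant in blood cells. In the RefSeq goat annotation (assembly ARS1.2), MIR15B and MIR16B lie next to each other inside the SMC4 gene, MIR15A lies next to MIR16A, MIR195 next to MIR497, and MIR424 in a group with MIR542 and MIR450. The build behind the deposited counts was not given in the sources used here, so no positions are printed.

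Library totals ran from 5675489 miRNA reads in the bovine library to 11963849 in whole library C, with the skimmed libraries at 7953807 to 9285189 and the whole libraries at 6561887 to 11963849. Levels are given as CPM, the reads of a miRNA scaled to the same total of miRNA reads in every library. Markers of the mammary epithelium, the cells that secrete milk, were abundant throughout: the list, with 11 of 11 names in the tables, summed to 283254 CPM in the bovine library, 240100 to 285005 CPM in the skimmed and 275452 to 327388 CPM in the whole libraries. In such bulk samples, fewer vesicles of a kind and less of a miRNA per vesicle cannot be told apart.

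The goat family consisted almost wholly of miR-16. The row of miR-16a stood at 8974, 8813 and 10565 CPM in skimmed libraries A, B and C, against 9879, 9601 and 10197 CPM in whole libraries A, B and C. The row of miR-16b stood at 8940, 8762 and 10507 CPM in the skimmed libraries, against 9796, 9599 and 9932 CPM in the whole libraries. For both rows the highest and the lowest goat values came from skimmed powder, and the whole libraries lay between them. By mean over the 6 goat libraries, miR-16a held place 21 and miR-16b place 22 of the 364 rows.

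The 2 miR-16 rows were nearly equal in every goat library. Many deposited values are fractions, of the kind left when a read that matches several entries is divided between them, and miR-16a took 50.1%, 50.1% and 50.1% of the summed miR-16 reads in the skimmed libraries, against 50.2%, 50.0% and 50.7% in the whole libraries. Whole library C departed most, with 3165.5 more reads in the miR-16a row than in the miR-16b row, of 240817 summed reads. The log2 ratio of miR-16a to miR-16b averaged 0.0073 ± 0.0016 in skimmed and 0.017 ± 0.019 in whole libraries (SD, n = 3 each), with p = 0.7 in a two-sided exact permutation test, where 0.1 is the smallest p that 3 against 3 libraries can reach. The sum of both rows, which does not depend on how reads were divided between these 2 rows, is used for the comparisons that follow. It can still depend on reads shared with other rows, since it too is a fraction in some libraries (166342.28 reads in skimmed A). It came to 17915, 17575 and 21073 CPM in the skimmed and 19675, 19200 and 20129 CPM in the whole libraries, and with the rows joined it would hold place 16 of 363. Its neighbours in that order were miR-423-5p at 20860 ± 2937 CPM above and miR-26c at 18365 ± 2174 CPM below (SD, n = 6), and the goat range of miR-16 overlapped both.

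The miR-15 rows were far lower. The row of miR-15b, the partner of miR-16b at the SMC4 locus, stood at 282, 96.4 and 197 CPM in the skimmed libraries, against 274, 157 and 352 CPM in the whole libraries. Skimmed B was the lowest and whole C the highest, and the powders overlapped. By goat mean miR-15b held place 101 of 364, between miR-140 at 234 ± 105 CPM and miR-2478 at 219 ± 73.7 CPM (SD, n = 6), and its range overlapped both. Summed miR-16 exceeded it 63.5-fold, 182-fold and 107-fold in skimmed libraries A, B and C, and 71.7-fold, 122-fold and 57.2-fold in whole libraries A, B and C. Library preparation can recover different miRNAs with different efficiency, so this ratio compares reads, not molecules. The log2 ratio of miR-15b to summed miR-16 averaged -6.75 ± 0.76 in skimmed and -6.31 ± 0.56 in whole libraries (SD, n = 3 each; two-sided exact permutation p = 0.6). The difference of -0.44 became -0.81 without skimmed A, -0.75 without whole B, -0.20 without whole C and -0.05 without skimmed B.

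The row of miR-15a, the partner of miR-16a at its locus, was close to all-or-none. It had 2, 2 and 234 reads in skimmed libraries A, B and C, against 440, 670 and 6 reads in whole libraries A, B and C. One skimmed and 2 whole libraries thus held 234 to 670 reads and the other 3 goat libraries 2 to 6. This pattern was common: for 123 of the 364 rows, or 33.8%, one goat library gave 100 reads or more while another gave 10 or fewer. The remaining members were at the edge of detection. The row of miR-424-5p had 73.5 reads in whole C and 0 in every other library. A floor of 3 reads stands for 0.529 CPM in the bovine library. It stands for up to 0.377 CPM in the skimmed and up to 0.457 CPM in the other whole libraries. The row of miR-195 had under 1 read in every library. Of the further miRNAs listed for these loci, miR-503, miR-542, miR-450a and miR-322 were not analysed here, and miR-450b was again all-or-none, with 2, 500 and 0 reads in the skimmed and 318, 2 and 1 reads in the whole libraries.

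**Figure D1:**
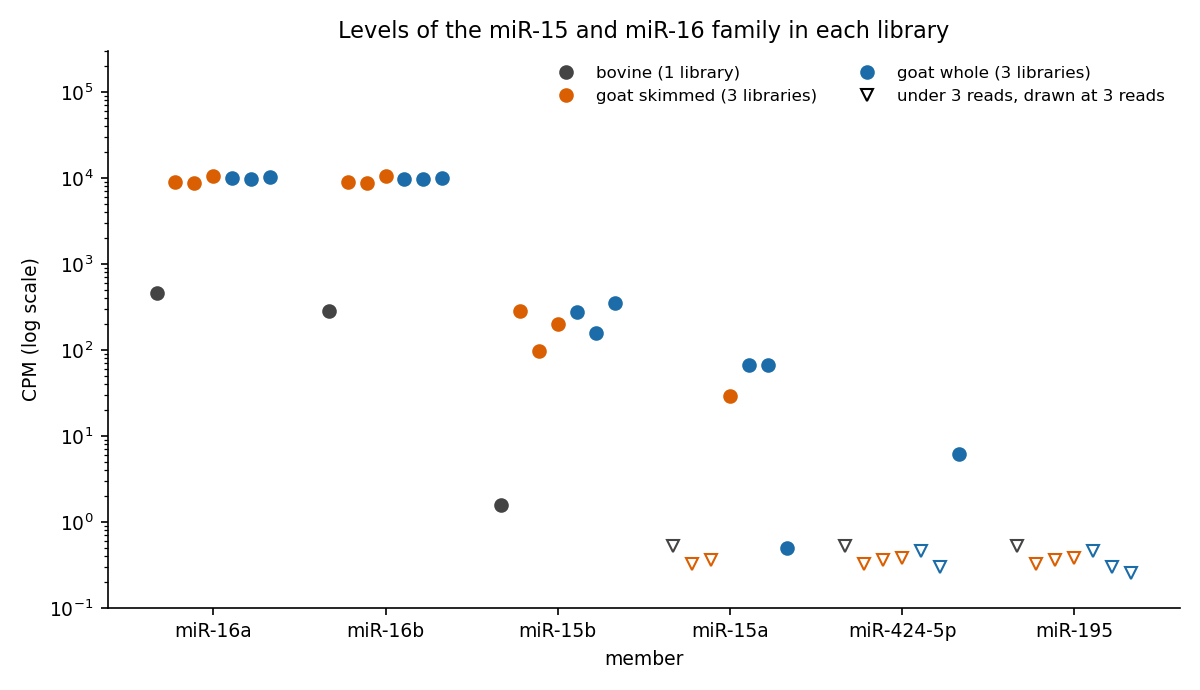
Level of each member in each library in CPM on a log axis, one point per library, ordered bovine, skimmed A to C and whole A to C, with values under 3 reads drawn as open triangles at the level of 3 reads. The miR-16 rows sit between 8762 and 10565 CPM in all goat libraries and at 458 and 283 CPM in the bovine library, while miR-15a runs from 0.215 to 29.4 CPM in skimmed and from 0.502 to 67.1 CPM in whole libraries.

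The next comparison set skimmed against whole goat powder, whose labels do not say that they came from the same milk. No member passed the test. Of the 6 members 4 had enough reads to be tested, and none of the 4 was called by edgeR (quasi-likelihood, Benjamini-Hochberg adjusted over all 209 miRNAs, threshold 0.05). The background was 1 miRNA called, or 0.478% of those tested, namely miR-25 with a log2 fold change of 0.87 (adjusted p = 0.035 in edgeR). With the miR-16 rows summed it was 0.481% of 208. At an unadjusted p under 0.05 there were 0 of the 4 members, where 22 of all 209 miRNAs, 10.5%, lay under it. DESeq2's Wald test and limma-voom also called 0 of the members, with 5.74% and 0.478% of all 209 miRNAs called. In DESeq2, 7 of the 209, miR-15a among them, had no adjusted p and could not be called. The powders did not overlap for 0 of the 4 members, against 20.1% of all 209 miRNAs.

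Summed miR-16 averaged 18854 ± 1929 CPM in skimmed and 19668 ± 464 CPM in whole libraries (SD, n = 3 each). Its log2 fold change was 0.01 ± 0.12 (SE), with a 95% interval of -0.27 to 0.29 and an adjusted p of 0.99 in edgeR. That interval leaves room for a level up to 1.22-fold higher or 1.21-fold lower in skimmed powder. Taken singly, miR-16a had a log2 fold change of 0.02 ± 0.11 and miR-16b of 0.03 ± 0.10 (SE; adjusted p = 0.96 each in edgeR). The sign of all of these depended on the scaling and turned with library totals in place of TMM factors.

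The lower members were measured less sharply. For miR-15b, at 192 ± 93.0 CPM in skimmed and 261 ± 98.0 CPM in whole libraries (SD, n = 3 each), the log2 fold change was -0.35 ± 0.61 (SE) with a 95% interval of -1.74 to 1.04 and an adjusted p of 0.96 in edgeR. A 2-fold difference in either direction lies within that interval. The value was -0.80 without skimmed A, -0.02 without skimmed B and -0.06 without whole C, with no call in any of them. For miR-15a the interval ran from -7.24 to 3.05 (adjusted p = 0.92 in edgeR), and leaving out skimmed C, its 1 high skimmed library, took the log2 fold change to -7.42, against -2.10 with all 6 libraries. The family as a whole took 1.91% ± 0.196 of skimmed and 2.00% ± 0.0533 of whole miRNA reads (SD, n = 3 each; two-sided exact permutation p = 0.5, or 0.7 adjusted over the 3 values so tested).

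**Figure D2:**
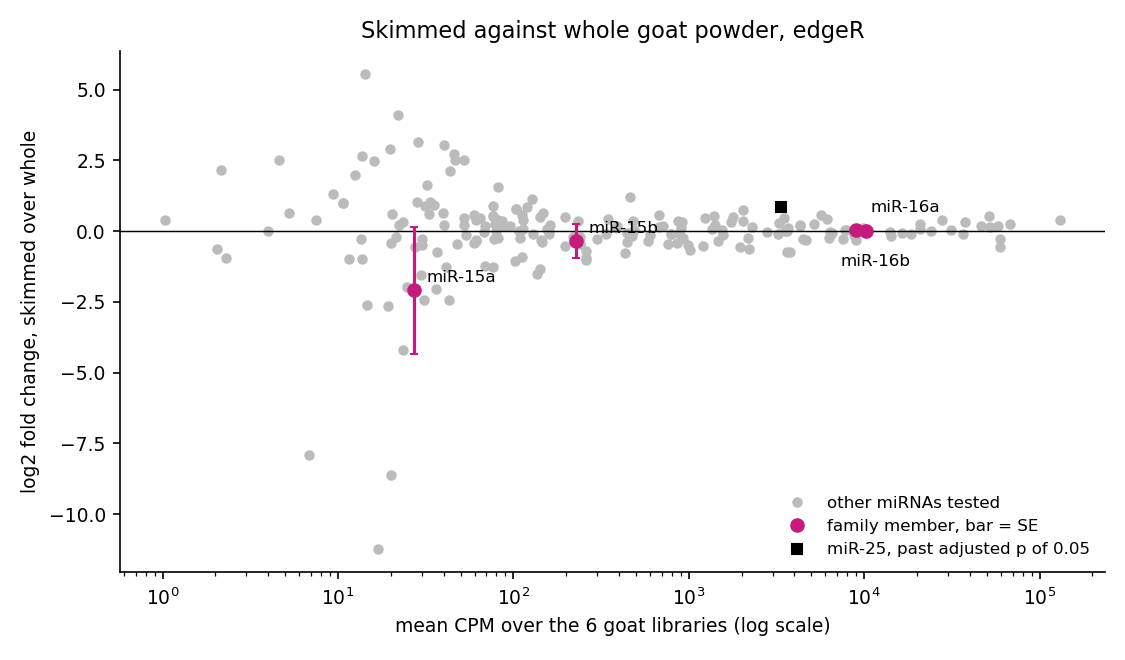
The log2 fold change of skimmed over whole goat powder in edgeR against the mean CPM over the 6 goat libraries on a log axis, for the 209 miRNAs tested, with bars of 1 SE on the 4 tested family members (miR-16a and miR-16b drawn slightly apart). The miR-16 rows lie at the zero line, with SEs of 0.11 and 0.10, and miR-15a has an SE of 2.24.

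Because miR-16 serves as a reference miRNA in other fluids, its spread between goat libraries was set beside that of other miRNAs. Over the 6 goat libraries summed miR-16 varied by 6.91% (coefficient of variation), between 17575 and 21073 CPM. The SD of its log2 CPM, 0.10, was the fourth lowest of the 63 miRNAs averaging 1000 CPM or more in goat, whose median SD was 0.25. The lower ones were miR-200b, miR-186 and miR-30d. Among 9 miRNAs often used as references it had the lowest SD, followed by miR-191 at 0.11 and miR-26a at 0.17. The SD reached 0.25 for miR-103, 0.35 for miR-484 and 0.55 for miR-93. With an SE of about 0.03 on the SD of summed miR-16, its order against miR-191 is not settled. The place of summed miR-16 was 6 of 63 with TMM factors and 6 of 63 with DESeq2 size factors. Within powders, it held place 22 of 63 among the skimmed libraries, with an SD of 0.14, and place 3 among the whole libraries, with an SD of 0.03. Among the skimmed libraries miR-191, at 13431 ± 642 CPM, varied less than summed miR-16, at 18854 ± 1929 CPM (SD, n = 3 each). By contrast miR-15b varied by 41.3%, and among 62 miRNAs with a goat mean of 100 to 1000 CPM its SD of log2(CPM + 1), 0.68, held place 43 from the lowest, with a median of 0.54.

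**Figure D3:**
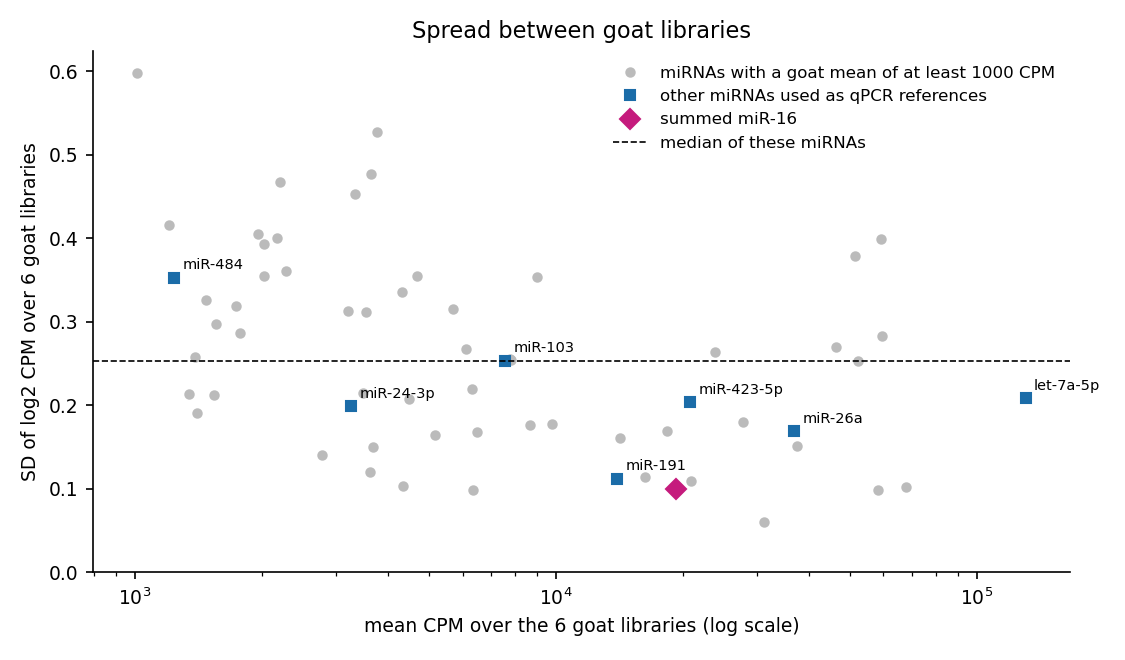
SD of log2 CPM over the 6 goat libraries against mean CPM on a log axis, for the same 63 miRNAs, with the miR-16 rows summed (diamond) and other reference miRNAs as squares (miR-93 is below this level). Summed miR-16, at 0.10, lies well under the dashed median of 0.25 and beside miR-191 at 0.11.

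The bovine powder gave a different picture for the same miRNAs. Its single library allows no test, and species, product and library cannot be told apart. Summed miR-16 stood at 741 CPM (95% Poisson interval 719 to 764) in the bovine library, against 19261 ± 1332 CPM (SD, n = 6) and a lowest value of 17575 CPM in the goat libraries. This is 26.0-fold lower in the bovine library, with an interval of 25.2 to 26.8 that covers the counting error of the bovine reads only. Its share of miRNA reads was 0.0741% (exact binomial 95% interval 0.0719 to 0.0764) in the bovine library, against 1.93% ± 0.133 in goat (SD, n = 6). The place of miR-16a among the 364 rows was 69 in the bovine library and 21 in the goat mean.

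Values below the goat libraries were common among the rows compared. Among the 125 miRNAs that averaged 100 CPM or more over the 7 libraries, the bovine library lay below every goat library for 68, or 54.4%, above every goat library for 35, and at least 10-fold below the goat mean for 32, or 25.6%. Since 6 of the 7 libraries in that mean were goat, rows low in the bovine library could pass through goat alone, and the shares do not describe the whole table. The rows of miR-15b, miR-16a and miR-16b belonged to both sets. The 64 rows with a goat mean of at least 1000 CPM were admitted by goat level, so rows high in the bovine library alone could not enter. Among them the median fold was 1.28, and 9 were at least 10-fold lower in the bovine library: miR-155, miR-224, miR-223, miR-143, miR-16b, miR-146b, miR-27a-3p, miR-16a and let-7i, named after their values were seen. With TMM factors over the 7 libraries in place of library totals, summed miR-16 in the bovine library was 0.0528 of the goat mean, against 0.0385 with library totals. Other reference miRNAs differed less: the bovine level over the goat mean was 1.22 for miR-191, 0.914 for miR-423-5p, 1.01 for let-7a-5p and 0.311 for miR-103, a miRNA whose 5′ part resembles that of the family, while miR-93 stood at 0.102.

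The division of miR-16 reads also differed. The miR-16a row took 61.8% of the summed reads in the bovine library (exact binomial 95% interval 60.3 to 63.2), against 50.0% to 50.7% in the goat libraries. That interval takes each read as drawn into 1 row, so it does not hold for reads divided between both. The log2 ratio of miR-16a to miR-16b was 0.69 in the bovine library, against 0.012 ± 0.013 (SD, n = 6) in goat. Taken by row, miR-16a was 21.1-fold and miR-16b was 33.8-fold lower in the bovine library than in the goat mean. The bovine excess of miR-16a, 989.5 reads, was smaller than that of whole goat library C in reads, but made up 23.5% of the sum, against 1.31% in that library.

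The bovine library held 9 reads of miR-15b, or 1.59 CPM, against 227 ± 93.5 CPM (SD, n = 6) and at least 799 reads per library in goat. Its level was 143-fold lower in the bovine library, with a counting interval of 75.3 to 312. Summed miR-16 exceeded miR-15b 467-fold in the bovine library, with a counting interval of 246 to 1022, against 57.2-fold to 182-fold in goat. Whether the 9 reads came from the bovine powder or were carried over from goat libraries was not tested, so both values hold for the reads in the table only. No read of miR-15a was found in the bovine library, which allows up to 0.529 CPM. Against that level of 3 reads its goat mean of 27.2 CPM makes it at least 51.5-fold lower in the bovine library, but 3 of the goat libraries held only 2, 2 and 6 reads of it.

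**Figure D4:**
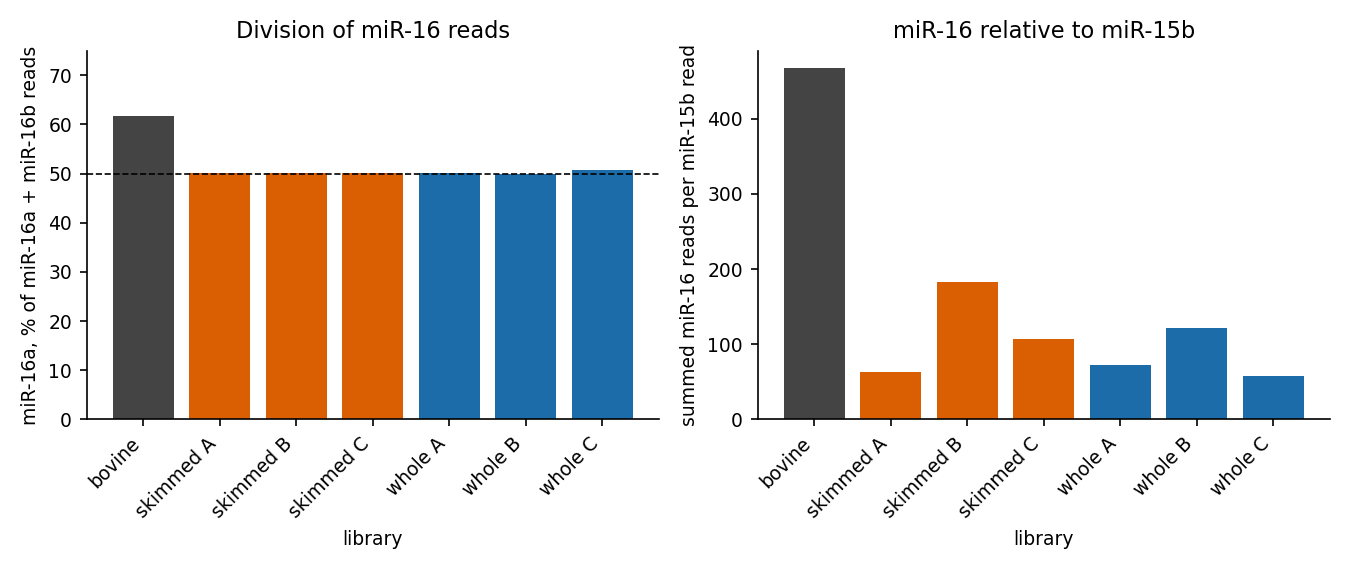
Left, the share of summed miR-16 reads in the miR-16a row, with a dashed line at 50%; right, summed miR-16 reads per miR-15b read, one bar per library. The bovine library stood at 61.8% and at 467 reads, the second value resting on 9 miR-15b reads, against 50.0% to 50.7% and 57.2 to 182 reads in the goat libraries.

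Among the 125 miRNAs averaging 100 CPM or more over the 7 libraries, the fold of miR-15b lay apart from those of the miR-16 rows. A set of 26 of the 125 miRNAs, miR-15b among them, was 69.6-fold to 189-fold lower in the bovine library, with 5 to 95.5 bovine reads each. A further 6 were 10.03-fold to 33.8-fold lower, among them both miR-16 rows, miR-146b and miR-27a-3p, with at least 292 bovine reads each. None of the 125 lay between 33.8-fold and 69.6-fold, but rows of lower mean were left out. Of these, miR-146a was 59.6-fold lower with 5 bovine reads. The member miR-15a, with no bovine read, was at least 41.9-fold lower by its 95% counting limit. These classes were seen in the data and not set beforehand. With so few bovine reads, the rows of the first set reached a mean of 100 CPM through goat alone. The filter therefore also shapes where that set begins, and the gap is not a result about the members. Few bovine reads lie behind each value of the first set, and carry-over of goat reads into the bovine library was not tested as their source.

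Markers of blood and immune cells were low in the bovine library as well. The leukocyte list, with 6 of 6 names in 7 rows, summed to 933 CPM in the bovine library, against 22732 to 25155 CPM in the skimmed and 21551 to 25501 CPM in the whole libraries, 25.7-fold lower in the bovine library than in the goat mean. Its rows of miR-142-3p and miR-150 had 0 bovine reads, but goat libraries were also at or near 0, with 0.5 to 214 reads in the skimmed and 0 to 158 in the whole libraries for miR-142-3p, and 0 to 1 and 74 to 187 for miR-150. The bovine value lay below every goat library for 5 of the 7 rows. Over the 125 miRNAs averaging 100 CPM or more this held for 54.4%, and 35 of the 125 lay above every goat library. Those shares stand beside the counts of all lists given here, some of whose rows lie under 100 CPM. The list is mostly miR-146b, at 828 CPM in the bovine library and 20890 ± 1568 CPM (SD, n = 6) in goat. By row the folds differed widely: miR-142-5p was 2.78-fold and miR-155 was 181-fold lower in the bovine library than in the goat mean. For red cells, miR-451 and miR-144 were not analysed here, and miR-486 and miR-363 summed to 0.176 CPM in the bovine library, against 24.8 to 114 CPM in the skimmed and 24.0 to 113 CPM in the whole libraries. Of these 2 rows only miR-486 was below every goat library, since miR-363 had 0 to 702 reads in the skimmed and 5 to 447 in the whole libraries. Markers of stroma and endothelium, almost all miR-143, summed to 17.2 CPM in the bovine library, against 1690 to 2458 CPM in the skimmed and 1487 to 1654 CPM in the whole libraries, with 1 of the 3 rows, miR-143, below every goat library. The list for muscle, liver and nerve, mostly miR-128, stood at 246 CPM in the bovine library, against 748 to 827 CPM in the skimmed and 474 to 894 CPM in the whole libraries. The epithelial sum in the bovine library was 1.01 times the goat mean, but its rows moved both ways: of 12 rows, 4 lay below every goat library and 4 above. Among them miR-375 stood at 11535 CPM in the bovine library, against 27870 ± 3565 CPM in goat, and miR-200c at 55374 CPM in the bovine library, against 37385 ± 4040 CPM in goat (SD, n = 6 each). The part of these cell types in the miR-16 difference was not tested. Between the goat powders the leukocyte sum stood at 24024 ± 1220 CPM in skimmed and 23953 ± 2109 CPM in whole libraries (SD, n = 3 each).

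**Figure D5:**
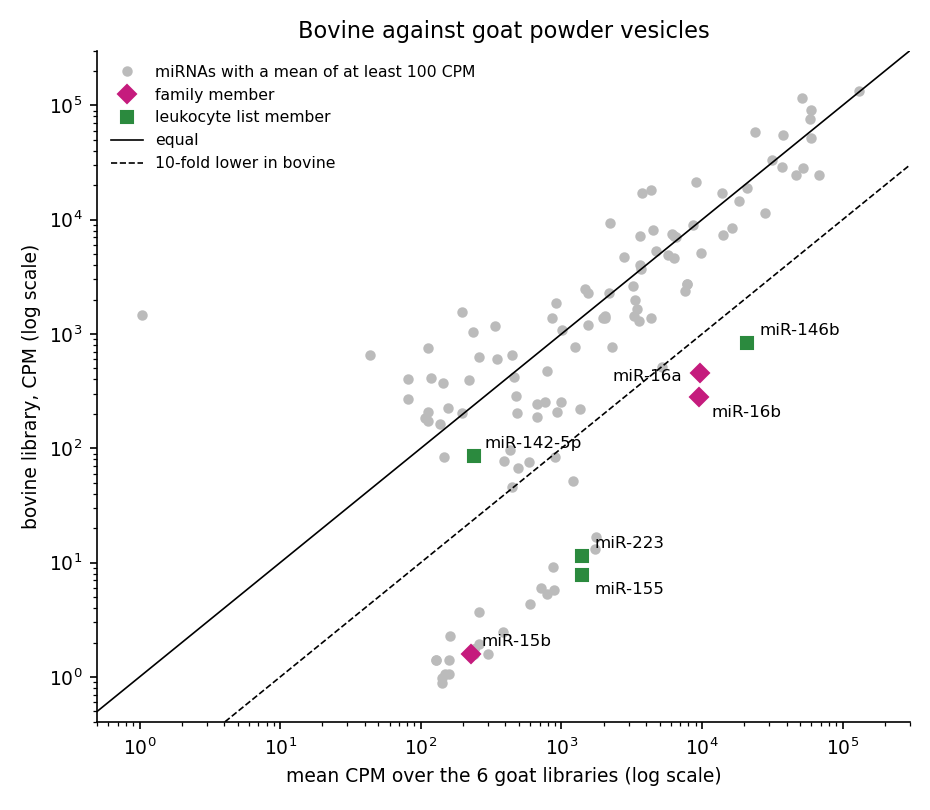
CPM in the bovine library against the mean CPM over the 6 goat libraries, both on log axes, for the 125 miRNAs averaging 100 CPM or more over all 7 libraries, with the line of equality and a dashed line at a 10-fold lower bovine level. The miR-16 rows (diamonds) lie beside miR-146b (square), 21.1-fold to 33.8-fold under equality. The row of miR-15b lies 143-fold under it, in a lower band of 26 miRNAs. That band holds miR-155 and miR-223 and also rows outside the leukocyte list, such as miR-224 and miR-143. The leukocyte row of miR-142-5p lies only 2.78-fold under equality.

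The miRNA whose pattern over the 7 libraries was nearest to that of summed miR-16 was miR-146b, known from immune and inflammatory settings. Nearness was the mean absolute difference of log2(CPM + 1) centred on each miRNA's own mean, over 63 other miRNAs averaging 1000 CPM or more, and came to 0.11 for miR-146b, 0.27 for miR-27a-3p and 0.34 for let-7i. For miR-15b the nearest were miR-224 at 0.49, miR-155 at 0.55 and miR-223 at 0.59. These likenesses rest largely on the 1 bovine library. Over the 6 goat libraries alone the nearest to summed miR-16 were miR-182 at 0.04, miR-186 at 0.07 and miR-200b at 0.08, each of which stood above its goat mean in the bovine library: 4706 CPM against 2780 ± 264 CPM for miR-182, 7254 CPM against 6343 ± 438 CPM for miR-186 and 32904 CPM against 31225 ± 1308 CPM for miR-200b (SD, n = 6 each). The nearest to miR-15b over the goat libraries were miR-27b at 0.33, miR-183 at 0.39 and let-7g at 0.45.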

How the data were processed

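Small RNA was sequenced as single-end reads of 50 bases, per the labels' protocols, in 7 libraries. The deposited tables give estimated counts per mature miRNA, per the file headers and the fractional values (36.9% to 46.7% of values above 0 are whole within 1e-06); aligner, counter, miRNA reference and build were not given in the sources used here. CPM was computed over all 364 rows. For tests, estimated counts were rounded and analysed for the 6 goat libraries with edgeR 4.0.16 under R 4.3.3 (default low-count filter, TMM factors 0.928 to 1.067, quasi-likelihood test, Benjamini-Hochberg over 209 miRNAs, or over 208 with the miR-16 rows summed, threshold 0.05); DESeq2 1.42.0 (no independent filtering) and limma-voom 3.58.1 were alternatives. An SE is the log2 fold change divided by the square root of F. Poisson and Clopper-Pearson intervals at 95% and floors of 3 reads cover counting error only, since PCR copies of a molecule were not marked. Named miRNAs were the members, miRNAs of their loci, written marker and reference lists, neighbours in level and pattern, and those past the threshold. The members and lists were chosen with earlier results of these data known. miR-15a as a fold change was added after its values were seen. A search for other miRNAs of the same seed was not made here. No goat library was a copy of another from the same powder (chi-square per degree of freedom 497 to 1642). Pairs across groups were not compared in this way. On simulated data drawn for 209 miRNAs in skimmed against whole powder, edgeR called 78.3% of the miRNAs changed 2-fold at 1000 CPM or more and 2.88% of those below.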

Additional observations from a re-analysis of the deposited data

How the results depend on the processing

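Over all alternatives no family member passed the threshold: adjusted p ranged from 0.79 to 1.00 for summed miR-16, from 0.90 to 0.99 for miR-16a and for miR-16b, from 0.76 to 1.00 for miR-15b and from 0.35 to 0.99 for miR-15a, for which DESeq2 gave none. The log2 fold changes of miR-16 lay so near 0 that their sign turned. With DESeq2 size factors they were -0.0051 for miR-16a and -0.00062 for the sum, with library totals -0.066, -0.056 (miR-16b) and -0.061 (sum), with upper-quartile scaling -0.12, -0.11 and -0.15, without a low-count filter -0.039, -0.028 and -0.046, and in DESeq2's Wald test -0.0051 for miR-16a and -0.00063 for the sum. Upper-quartile scaling moved the median of all miRNAs by -0.15. Leaving out 1 goat library gave -0.057 to 0.079 for miR-16a, -0.046 to 0.089 for miR-16b, -0.10 to 0.070 for the sum and -0.80 to -0.02 for miR-15b. The count of miRNAs called over the whole table was 0 with DESeq2 size factors, library totals or upper-quartile scaling, 2 without a filter, 4 at a mean of at least 100 CPM, 12 in DESeq2's Wald test and 0 to 1 with 1 library left out. Whether the letters pair the libraries could not be settled with so few libraries. Correlations of deviations between the powders were -0.09, 0.07 and 0.37 for A, B and C, against -0.26 to 0.16 between unlike letters. With the letter as a replicate block 0 miRNAs were called and summed miR-16 stood at 0.0048. In that fit miR-15a stood at -6.20 (adjusted p = 0.71 in edgeR), against -2.10 without the block. With TMM-scaled totals the difference in family share was 0.0223 percentage points, against -0.0920; without 1 library it was -0.204 to -0.0227. The difference in the log2 ratio of miR-16a to miR-16b was -0.018 to 0.0010 without 1 library, the highest without whole C, and that of miR-15b to summed miR-16 was -0.81 to -0.05. With TMM factors over 7 libraries the bovine level over the goat mean was 0.0528 for summed miR-16 and 0.0523 for the family sum. The SD of miR-15b was 0.46 to 0.76 without 1 library, the lowest without skimmed B. The cause of these shifts was not tested. The 3 libraries per powder and the few reads of miR-15a, miR-195 and miR-424-5p limit what could be seen.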
